A study of Homo sapiens with 3 samples.

Results

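Transcripts of 36 genes that cut, carry, load and display peptides on MHC molecules were followed in NCI-H209, a human cell line grown from a small cell lung cancer. The genes were taken by symbol from a list that was chosen with earlier results of these data known. All 36 were found among the 60609 genes of the count tables. The class I route held 21 of them, from the heavy chain HLA-B to the folding enzyme PDIA3, and the class II route held 15, from the transactivator CIITA to the regulator RFXANK. The cells carried a lentiviral, doxycycline-inducible hairpin in the Tet-pLKO-puro vector, either sh490 or sh1362 against YES1, a Src-family kinase, or shGFP as the control. Doxycycline at 1 µg/mL every 2 days is given in the protocol of all 3 libraries, so the control also names the drug. There was 1 library per hairpin, and nothing in the labels says whether the cells were clones or pools, or how long the hairpins had been induced. By its title the series belongs to work on dasatinib, a kinase inhibitor, together with immunotherapy. The comparison addresses whether silencing YES1 goes with a change in these transcripts.

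MHC class I molecules show peptides from proteins made inside the cell to CD8 T cells. The proteasome cuts the peptides, the TAP1 and TAP2 transporter moves them into the endoplasmic reticulum, ERAP1 and ERAP2 trim them, and a loading complex around tapasin (TAPBP) places them on a heavy chain paired with B2M. MHC class II molecules show peptides from the endosomal route to CD4 T cells, and their genes need CIITA together with the RFX complex. Low class I expression is a known feature of neuroendocrine small cell lung cancer, and class II is mostly expressed by professional antigen-presenting cells.

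Promoter sequences of 5 members are shown first because they carry short words that recur in this gene family and because the genes differ widely in level. RefSeq windows (GRCh38.p14) matched 30 of the 36 members by symbol. Each line gives the 160 bases before the gene start, 5′ to 3′ on the gene's strand, and capitals mark CCAAT or its reverse complement (the core of the Y box) and GAAANNGAAA or its reverse complement (a core of interferon response elements), where N is any base. B2M lies at chr15:44711357-44711516, plus strand. TAP2 lies at chr6:32838740-32838899, minus strand, and TAPBP at chr6:33314079-33314238, minus strand. HLA-DQB1 lies at chr6:32666658-32666817, minus strand, and HLA-DPB1 at chr6:33075830-33075989, plus strand.
B2M: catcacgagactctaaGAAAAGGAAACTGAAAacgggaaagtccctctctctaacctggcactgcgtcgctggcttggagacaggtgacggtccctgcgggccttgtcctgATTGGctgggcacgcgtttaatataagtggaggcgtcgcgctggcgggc
TAP2: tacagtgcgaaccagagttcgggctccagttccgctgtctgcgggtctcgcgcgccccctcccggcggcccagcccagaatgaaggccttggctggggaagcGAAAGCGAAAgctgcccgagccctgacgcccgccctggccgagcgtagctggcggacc
TAPBP: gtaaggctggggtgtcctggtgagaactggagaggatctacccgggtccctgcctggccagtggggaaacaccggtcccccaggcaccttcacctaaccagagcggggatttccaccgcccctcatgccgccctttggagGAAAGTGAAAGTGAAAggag
HLA-DQB1: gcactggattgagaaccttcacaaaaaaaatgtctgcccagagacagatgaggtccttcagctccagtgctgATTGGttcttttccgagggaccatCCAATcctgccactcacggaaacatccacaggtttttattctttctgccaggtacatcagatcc
HLA-DPB1: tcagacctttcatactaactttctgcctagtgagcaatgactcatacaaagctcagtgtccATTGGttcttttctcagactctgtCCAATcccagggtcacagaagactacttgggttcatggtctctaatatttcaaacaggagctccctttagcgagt

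The interferon response word was found in 12 of the 45 windows of the members (26.7%), against 3.57% of all 35116 windows. It lay in 11 of the 18 class I members with a window, namely HLA-F, B2M, TAP1, TAP2, TAPBP, ERAP1, ERAP2, PSMB8, PSMB10, PSME1 and PSME2. It lay in 1 of 12 class II members, RFX5. Copies of the word overlap in TAP1, and in B2M and TAPBP, where the capitals run together. CCAAT was found in 22 of the 45 windows (48.9%, against 34.6% of all windows), covering 10 class I and 9 class II members. HLA-DQB1 and HLA-DPB1 each held CCAAT at 2 places. The X box core AGCAAC was found in 17.8% of the members' windows and 12.8% of all windows. TGACG, the core of cyclic AMP response elements and of the X2 box, was found in 35.6% and 24.6%. TTCNNNGAA, a STAT-type word, was found in 6.67% and 7.66%. All words were searched on both strands, and a match is only a description of the letters in the window.

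**Figure D1:**
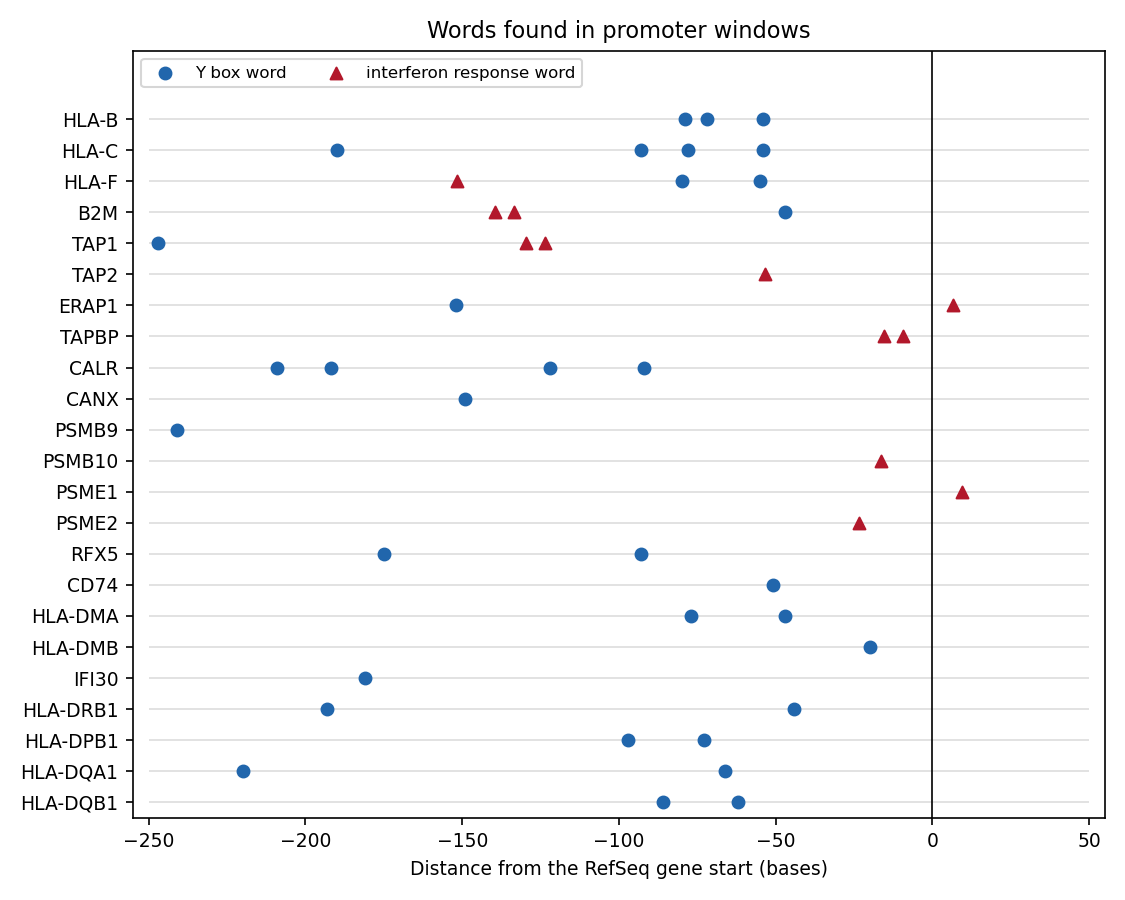
Positions of the Y box word (circles) and the interferon response word (triangles) in promoter windows of the members that held either, with distance in bases from the first RefSeq gene start listed (0) on the horizontal axis, markers at the centre of each word and genes on the vertical axis. The interferon response word lies in class I genes such as B2M, TAP2 and TAPBP, and every HLA gene shown has a Y box word within 100 bases before its start. Words at other starts, as in PSMB8, ERAP2 and HLA-G, are not drawn.

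The libraries held 7791747 counts (sh490), 7421552 (sh1362) and 4899006 (shGFP). A count of 0 allows up to 3 counts, equal to 0.385, 0.404 and 0.612 CPM (counts scaled to library size). YES1, the named target of both hairpins, had 163, 216 and 1465 counts. It was lower with both hairpins (edgeR log2 fold -3.60, SE 0.30, adjusted p 0.00761). Its adjusted p was 0.0513 when only genes of at least 5 CPM were tested. All 8 markers of the line's small cell and neuroendocrine type were detected in each library. Their levels differed, as 7 were higher with sh1362 than with sh490 (median log2 difference 0.50, and -0.02 over all genes). Against shGFP 0 of the 8 passed the edgeR test. The globins HBB, HBA1 and HBA2 passed the same test, each far higher in shGFP, and red cell markers summed to 735 normalised CPM there against 18.8 and 20.4. Transcripts of the mitochondrial genome took 7.78% of counts in sh1362, against 5.50% in sh490 and 5.47% in shGFP. The part of these differences in the results below was not tested.

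No member passed the test of both YES1 hairpins against shGFP. Of the 36 members, 32 had enough reads to be tested, and 0 passed edgeR's quasi-likelihood test at an adjusted p of 0.05, where 0.0255% of all 15708 tested genes did. Among the members 0 also had an unadjusted p under 0.05, against 4.35% of all genes, and 0 passed in DESeq2 or limma-voom. The lowest edgeR adjusted p among the members was 0.986. The median log2 fold was -0.06 over the 21 class I members and -0.34 over the 11 class II members tested, and 0.01 over all genes tested. The class II median was -0.54 with sh1362 alone and 0.00 with sh490 alone. With 2 libraries against 1 the test leaves 1 residual degree of freedom, and a p that misses the threshold does not show that these genes were unchanged.

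By size alone, 27 members had a mean of at least 5 CPM. Of these, 8 lay above shGFP with both hairpins (TAP1, TAPBPL, ERAP1, PSMB8, PSMB9, HLA-DMA, RFXAP and RFXANK), where 33.8% of 11634 genes did. Another 10 lay below it with both (HLA-C, HLA-E, HLA-F, B2M, CALR, CD74, HLA-DRB1, HLA-DQB1, HLA-DMB and RFX5), where 34.4% of genes did. The other 9 lay on opposite sides. These shares are near the background, and both folds use the same shGFP library. At least 2-fold apart from shGFP were 0 members with both hairpins (1.40% of genes in the same direction), 0 with sh490 (2.82%) and 1 with sh1362 (9.29%), which was TAP2. Single-hairpin differences have no replicate check, and their intervals are exact 95% intervals that cover counting error only.

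**Figure D2:**
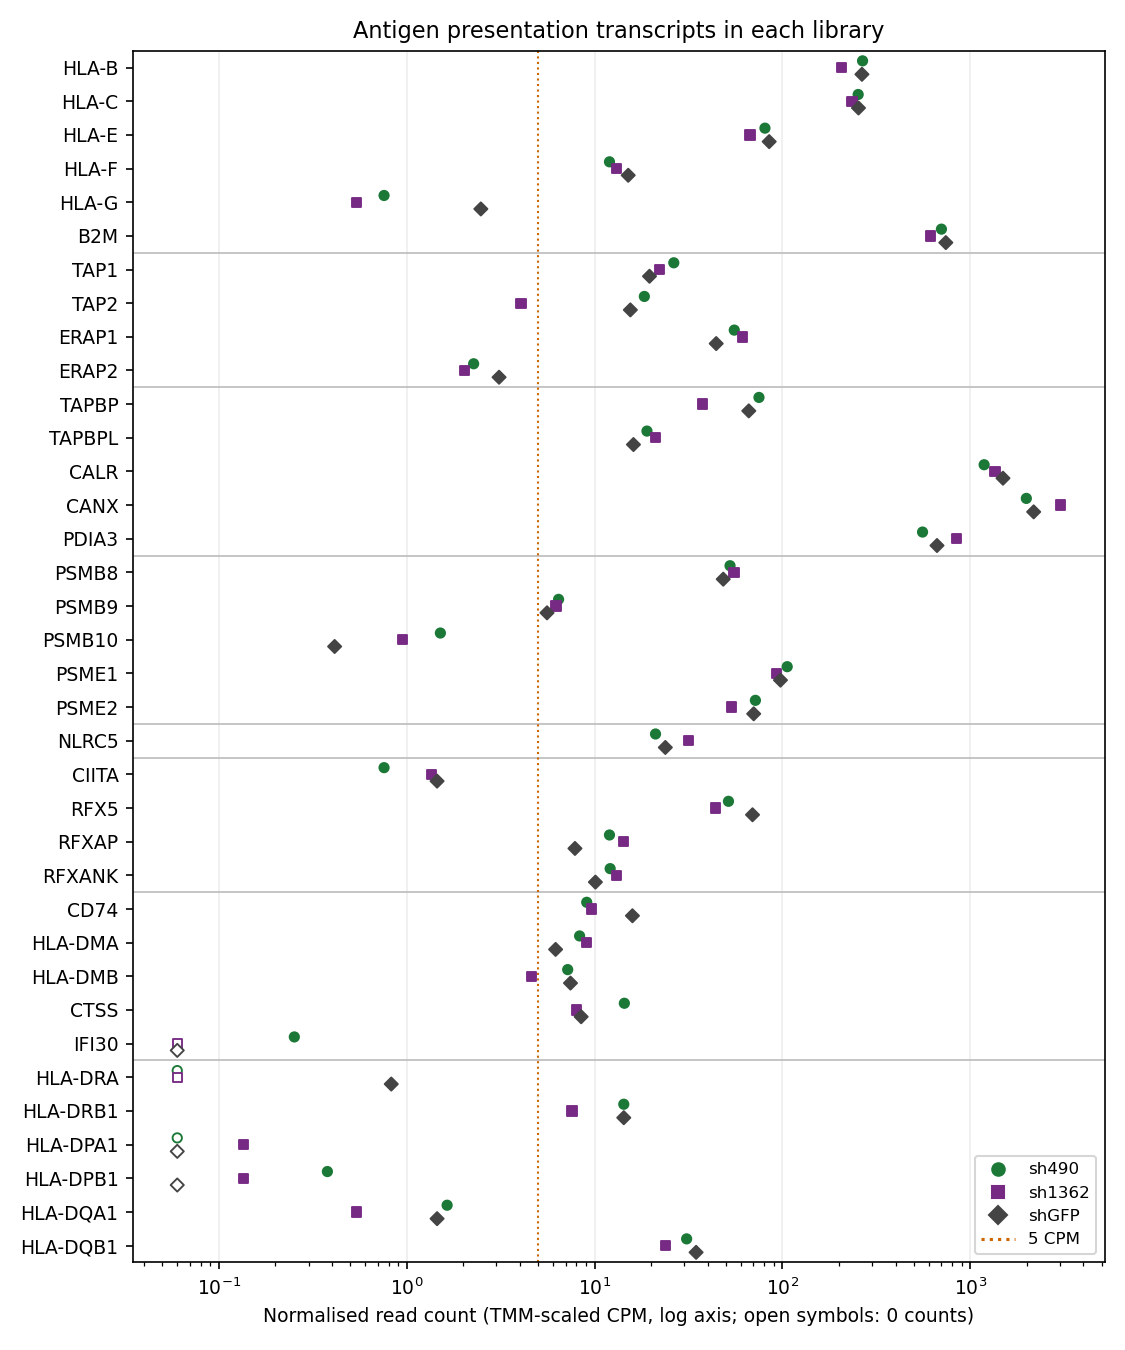
Normalised read counts (CPM after TMM scaling, log axis) of the 36 members in sh490 (circles), sh1362 (squares) and shGFP (diamonds), grouped by role, with open symbols for 0 counts and a dotted line at 5 CPM. CANX and CALR lie highest, followed by B2M and PDIA3, most class II chains lie below 5 CPM, and TAP2 in sh1362 (4.06 CPM) lies far from the other libraries.

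B2M and the heavy chains HLA-B, HLA-C and HLA-E had at least 67.2 normalised CPM in all 3 libraries, and HLA-F and HLA-G had 15.1 or less. B2M (chromosome 15, 44711487 to 44718877), the invariant light chain, had counts of 5568 (sh490), 4521 (sh1362) and 3583 (shGFP), equal to 702, 612 and 741 normalised CPM. Counts below follow the same order of libraries, and positions are on GRCh38. HLA-B (chromosome 6, 31269491 to 31357188 in the gene model used) had 2119, 1525 and 1283 counts, or 267, 206 and 265 normalised CPM. HLA-C (chromosome 6, 31268749 to 31272130) had 2004, 1739 and 1228 counts, or 253, 235 and 254 normalised CPM. These classical heavy chains present peptides to CD8 T cells, and sh490 lay at the control level for both while sh1362 lay below it.

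HLA-B was at 101% of shGFP with sh490 (94.0 to 108) and 77.8% with sh1362 (72.2 to 83.9). HLA-C was at 99.6% (92.7 to 107) and 92.7% (86.2 to 99.9), and B2M at 94.8% (90.9 to 98.9) and 82.6% (79.1 to 86.4). HLA-E, a ligand of the NK receptor NKG2A, had 640, 496 and 411 counts and was at 95% (83.8 to 108) and 79.0% (69.2 to 90.3). The sh1362 library was therefore the lowest of the 3 for HLA-B, HLA-C, HLA-E and B2M. HLA-F, a nonclassical chain, had 95, 97 and 73 counts, and both of its intervals included 100%. HLA-G, best known from the placenta, had 6, 4 and 12 counts, too few for the 5 CPM minimum, at 30.5% (9.39 to 87.8) and 21.8% (5.13 to 72.0). In the edgeR test HLA-G had a log2 fold of -1.90 (SE 1.07, adjusted p 0.986).

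Reads that aligned to several places were not counted, so levels of the closely related HLA genes are lower bounds. Reads over exons of more than 1 gene were left out as well. Exons of other genes covered 18.9% of the exonic bases of HLA-B, 28% of HLA-F, 25.8% of HLA-G and 1.40% of HLA-C, and 0 bases of HLA-E and B2M. In the same way TAP2 shared 32.2%, PSMB10 39.4% and IFI30 42.5% of their exonic bases. How many reads each library lost this way was not tested.

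Peptide transport held the member that was 2-fold apart. TAP2, a subunit of the peptide transporter, lies on chromosome 6 from 32821833 to 32838770, and had 146, 30 and 75 counts, or 18.4, 4.06 and 15.5 normalised CPM. The sh1362 library stood below the other 2, at 26.2% of shGFP (16.6 to 40.5) and 22.1% of sh490 (14.4 to 32.8), while sh490 was at 119% of shGFP (89.3 to 159). As the hairpins disagreed, the edgeR log2 fold was -0.46 with an SE of 0.77 (adjusted p 0.986). TAP1, the partner subunit, had 209, 163 and 95 counts, at 134% (105 to 173) and 112% (86.7 to 146) of shGFP. Per exon length TAP2 was at 52.6% of TAP1 in sh490 (42.3 to 65.3), 59.5% in shGFP (43.3 to 81.3) and 13.9% in sh1362 (9.06 to 20.6). TAP1 in sh1362 was not below the control. The share of counts from the mitochondrial genome was highest in sh1362, the library with the low TAP2 value, and a link between them was not tested.

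Among the trimming peptidases, ERAP1 had 439, 451 and 215 counts and lay above shGFP with both hairpins, at 125% (106 to 147) and 137% (117 to 162). It did not pass the test (edgeR log2 fold 0.39, SE 0.30, adjusted p 0.986). ERAP2, its relative, had 18, 15 and 15 counts. Per exon length ERAP2 stood at 4.39%, 3.56% and 7.47% of ERAP1, with overlapping intervals.

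Of the 5 members of the loading complex, 3 lay on opposite sides of shGFP with the 2 hairpins (TAPBP, CANX and PDIA3), 1 above it with both (TAPBPL) and 1 below it with both (CALR). Over all genes 3696 of 11634 lay on opposite sides. TAPBP, or tapasin, which bridges TAP and the heavy chain, had 595, 277 and 320 counts, or 75.0, 37.5 and 66.2 normalised CPM. Its level with sh1362 was 56.7% of shGFP (48.1 to 66.8) and 50% of sh490 (43.2 to 57.7), and with sh490 113% of shGFP (98.9 to 130). TAPBPL, a tapasin relative that edits peptides, had 151, 156 and 78 counts and was at 118% (89.3 to 157) and 131% (99.2 to 174). The lectin chaperone CANX had 15761, 22346 and 10521 counts, at 91.4% of shGFP with sh490 (89.2 to 93.7) and 139% with sh1362 (136 to 142). PDIA3, a disulfide isomerase of the complex, had 4420, 6265 and 3217 counts, at 83.8% (80.1 to 87.7) and 128% (122 to 133). CALR, the soluble lectin chaperone, had 9396, 9986 and 7222 counts, at 79.4% (77.0 to 81.9) and 90.6% (87.9 to 93.4). CANX and PDIA3 were thus above the control with sh1362, where TAPBP and TAP2 were below it, and no member of the complex passed the edgeR test.

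**Figure D3:**
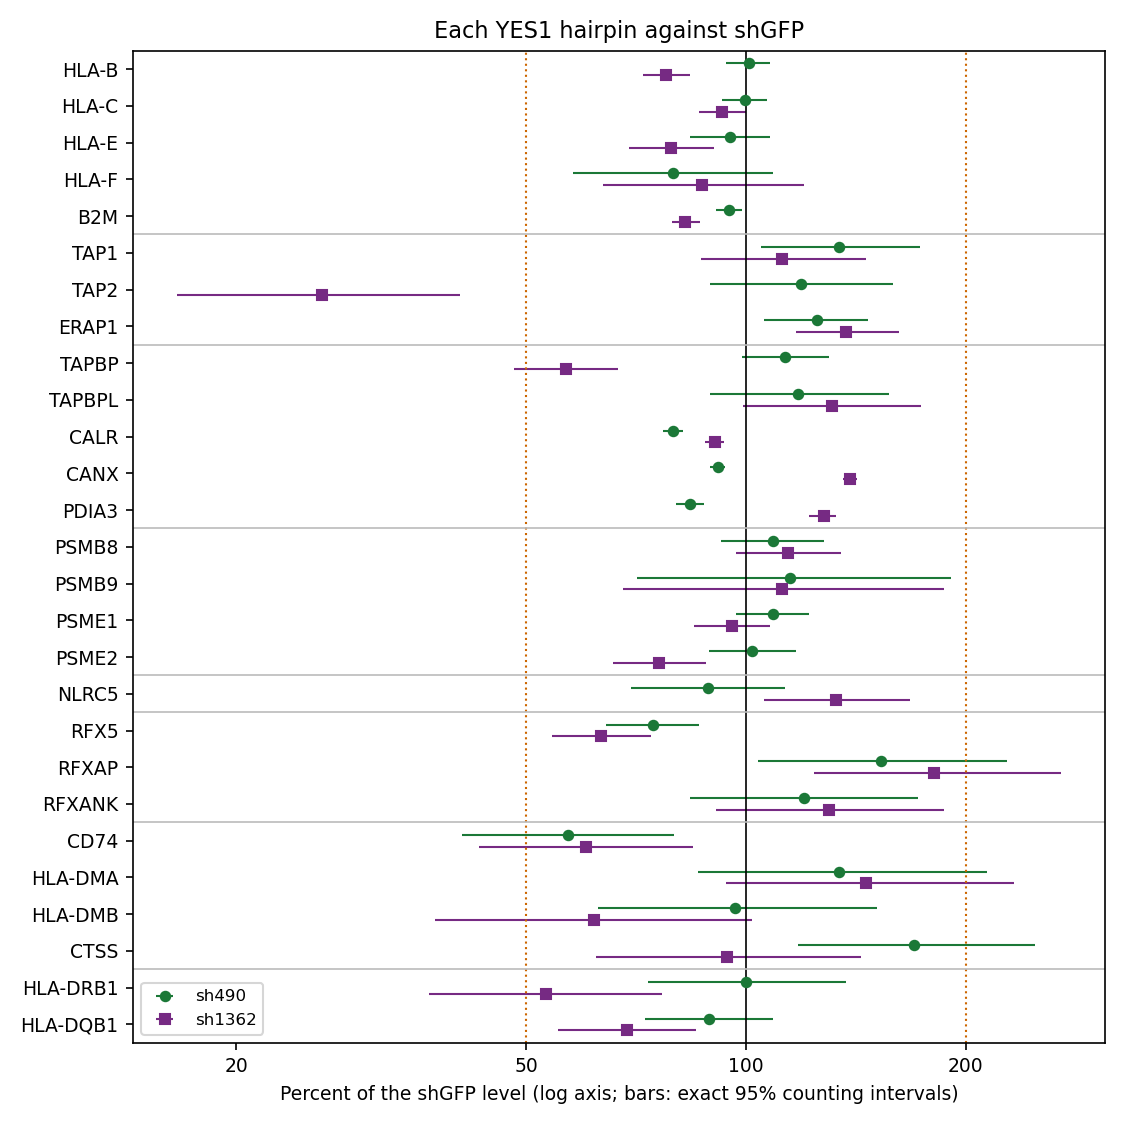
Level of the 27 members with a mean of at least 5 CPM as percent of shGFP (log axis), with sh490 (circles) and sh1362 (squares) and exact 95% counting intervals as bars; dotted lines mark 50% and 200%. TAP2 with sh1362 (26.2%) is the only point beyond a dotted line.

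Immunoproteasome transcripts were less abundant per exon length than their constitutive counterparts in all 3 libraries. Its subunits replace constitutive ones, PSMB8 for PSMB5, PSMB9 for PSMB6 and PSMB10 for PSMB7, and interferon gamma is known to induce them. PSMB8 had 417, 408 and 234 counts, and stood at 20% (17.8 to 22.5), 21.2% (18.8 to 23.9) and 18.4% (15.7 to 21.5) of the PSMB5 level in sh490, sh1362 and shGFP. PSMB9 had 51, 46 and 27 counts, at 2.38%, 2.37% and 2.26% of PSMB6. PSMB10 had 12, 7 and 2 counts, at 0.785%, 0.594% and 0.236% of PSMB7. The intervals of the 3 libraries overlapped for each of these pairs. With counts of 12 and 2, PSMB10 was at 366% of shGFP with sh490, an interval from 81.5 to 3368.

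The proteasome activator PA28 is built from PSME1 and PSME2. PSME1 had 841, 689 and 472 counts, and PSME2 had 569, 395 and 340. PSME2 was at 102% of shGFP with sh490 (89.1 to 117) and 76.1% with sh1362 (65.7 to 88.2), and both intervals of PSME1 included 100%. NLRC5, the transactivator of class I genes, had 167, 234 and 115 counts, at 88.6% (69.5 to 113) and 133% (106 to 168) of shGFP. NLRC5 was thus highest in sh1362, where class I members of at least 5 CPM went both ways. TAPBPL, ERAP1, PSMB8, CANX and PDIA3 were also highest there. HLA-B, HLA-C, HLA-E, B2M, TAP2, TAPBP, PSME1 and PSME2 were lowest there, and the others lay between.

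**Figure D4:**
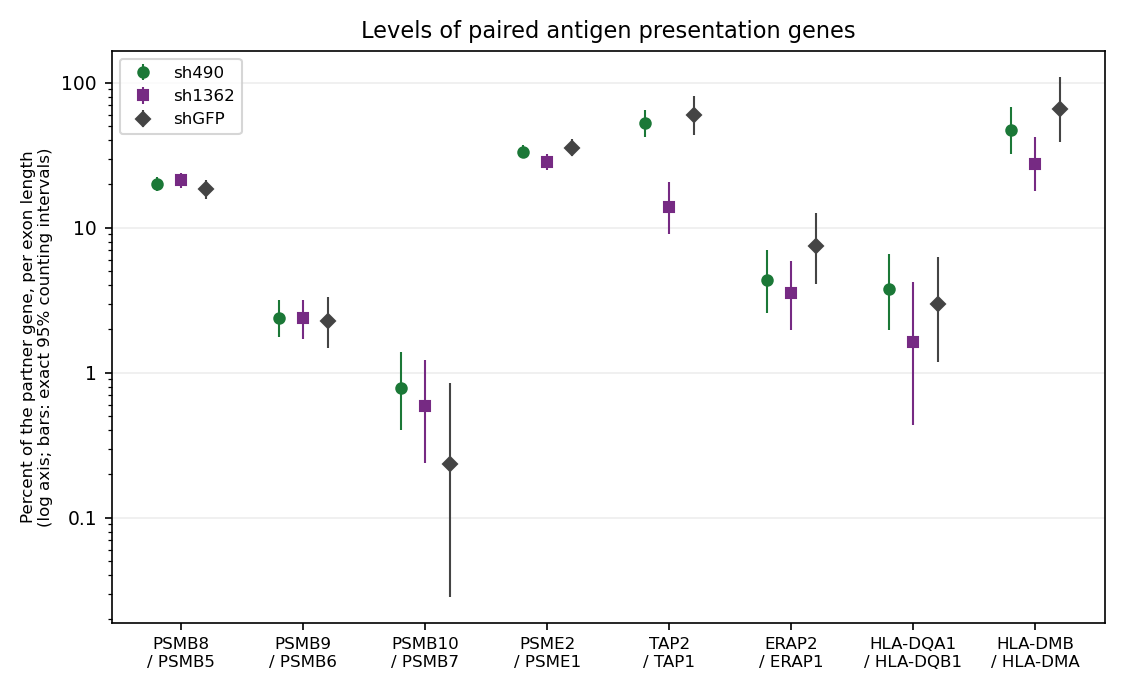
Level of 1 gene as percent of its partner gene, per exon length (log axis), in each library with exact 95% counting intervals as bars. The immunoproteasome pairs overlap among the libraries, and TAP2 relative to TAP1 is lower in sh1362 (13.9%) than in sh490 (52.6%) and shGFP (59.5%).

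Class II chains were uneven, with at least 56 counts for the beta chains HLA-DRB1 and HLA-DQB1 and at most 13 for their alpha chains. HLA-DRA, the alpha chain that every DR molecule needs, had 0, 0 and 4 counts. HLA-DRB1, its beta chain partner, had 113, 56 and 69 counts, or 14.3, 7.58 and 14.3 normalised CPM. HLA-DQB1 had 245, 176 and 168 counts, while its partner HLA-DQA1 had 13, 4 and 7. Per exon length HLA-DQA1 was at 3.78%, 1.62% and 2.97% of HLA-DQB1. HLA-DPA1 had 0, 1 and 0 counts and HLA-DPB1 had 3, 1 and 0. The 2 DP chains were therefore at or under the limit of detection. The HLA-DPB1 window printed above holds CCAAT at 2 places, as that of HLA-DQB1 does, and a link between the word and the level was not tested.

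With sh1362, HLA-DRB1 was at 53.2% of shGFP (36.7 to 76.7) and HLA-DQB1 at 68.6% (55.2 to 85.3). With sh490 they were at 99.9% (73.4 to 137) and 89.0% (72.8 to 109). Neither passed the edgeR test, with log2 folds of -0.38 (SE 0.49) and -0.34 (SE 0.34). The HLA beta chain genes have close copies, so reads may be lost or shifted between them, and these levels are uncertain.

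CD74, the invariant chain that guards the class II groove, had 72, 71 and 77 counts, or 9.08, 9.61 and 15.9 normalised CPM. It lay lower with both hairpins, at 57.0% (40.8 to 79.7) and 60.4% (43.1 to 84.5) of shGFP, and had the lowest unadjusted p of the members (edgeR log2 fold -0.77, SE 0.41, p 0.0985, adjusted p 0.986). The shGFP library was also the one with HLA-DRA reads and with most globin reads. White cell markers other than CORO1A lay under the 5 CPM minimum. S100A9 had 1, 0 and 20 counts (edgeR log2 fold -5.63, SE 1.38, p 0.00334, adjusted p 0.986). S100A8 had 0, 0 and 5 counts and MS4A1 0, 2 and 4. CD14 had 14, 10 and 6 counts, or 1.77, 1.35 and 1.24 normalised CPM. LYZ had 1, 9 and 3 counts, or 0.126, 1.22 and 0.62 normalised CPM. For CD14 and LYZ the intervals against shGFP included 100% with each hairpin. The 15 leukocyte markers summed to 17.4, 15.8 and 25 normalised CPM. CORO1A took 121, 91 and 80 of their counts. The other 14, set apart after their values were seen, had 17, 26 and 41 counts, or 2.14, 3.52 and 8.48 normalised CPM. S100A9 gave 20 of those 41 counts. PTPRC, which marks all white cells, had 0, 3 and 2 counts, and CD3E, ITGAM, FCER1G and CD68 were at 0 in every library. The part of such RNA in the CD74 and HLA-DRA values was not tested, and in bulk RNA more cells of a type cannot be told apart from more RNA per cell.

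The peptide exchange factor HLA-DM was detected at low levels. HLA-DMA had 66, 67 and 30 counts and HLA-DMB 57, 34 and 36. HLA-DMA was at 134% (85.9 to 214) and 146% (93.8 to 233) of shGFP, and HLA-DMB at 96.6% (62.6 to 151) and 61.9% (37.5 to 102), so all 4 intervals included 100%. CTSS, the protease that degrades the invariant chain, had 114, 59 and 41 counts, at 170% of shGFP with sh490 (118 to 249) and 94.2% with sh1362 (62.2 to 144). IFI30, a lysosomal thiol reductase, had 2, 0 and 0 counts.

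Regulators of class II lay on different sides of the control. CIITA, the master switch of the class II genes, had 6, 10 and 7 counts, or 0.142, 0.232 and 0.264 TPM (a level per exon length, scaled to the library). Of the RFX complex, which binds the X box, RFX5 had 409, 324 and 335 counts, or 51.6, 43.9 and 69.3 normalised CPM. RFX5 lay below shGFP with both hairpins, at 74.5% (64.3 to 86.3) and 63.3% (54.2 to 74.0), and did not pass (edgeR log2 fold -0.54, SE 0.29, p 0.102, adjusted p 0.986). RFXAP had 95, 105 and 38 counts and lay above it, at 153% (104 to 228) and 181% (124 to 270), and did not pass either (edgeR log2 fold 0.74, SE 0.45, p 0.140, adjusted p 0.986). RFXANK had 96, 97 and 49 counts, at 120% (83.9 to 172) and 130% (91.0 to 187). Transcripts of all 3 subunits were thus detected in each library, where CIITA was at 10 counts or fewer.

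Levels between genes were compared per exon length, in TPM of the shGFP library. CALR was the highest at 2081 TPM (2034 to 2130), followed by CANX at 1184, PDIA3 at 596 and B2M at 461. HLA-C came next at 383 (362 to 405) and HLA-B at 329 (311 to 347), then PSME1 at 208, HLA-E at 110 and PSME2 at 74.2. RFX5 at 57.1 (51.2 to 63.6), PSMB8 at 52.6 (46.1 to 59.8), TAPBP at 49.5 (44.2 to 55.2) and HLA-DRB1 at 43.9 (34.2 to 55.6) each overlapped the next in counting error. HLA-DQB1 followed at 26.8 (22.9 to 31.2), below HLA-DRB1 beyond counting error. ERAP1, TAPBPL, TAP1, RFXANK, HLA-F, RFXAP and CD74 lay between 21.2 and 12.6 TPM, and neighbours in that order overlapped. B2M exceeded 99.0% of the genes detected in shGFP, and TAP2, at 9.20 TPM, exceeded 53.5%. Exon length here is the union of all annotated exons, which lowers the TPM of genes with long, little used exons.

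The 2 hairpins were then set against each other, a comparison that does not use shGFP. Of the 27 members, 15 were lower with sh1362 than with sh490, where 51.7% of all genes were. At least 2-fold apart was 1 member, TAP2, where 5.90% of genes were, and TAPBP, at a 50% level, lay at the threshold. Members were then split by position, over a stretch whose ends were set by the members HLA-F and TAPBP. The split is thus not independent of the member list. From HLA-F to TAPBP (chromosome 6, 29722775 to 33314387) 18 members are encoded, and of the 13 with at least 5 CPM 10 were lower with sh1362, with a median log2 difference of -0.26. Of the 68 other genes of that stretch with at least 5 CPM 49 were lower, with a median of -0.19, beside -0.02 over all genes. Of the 14 members encoded elsewhere 5 were lower, with a median of 0.13. These counts are descriptions of 2 libraries and no test was made.

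**Figure D5:**
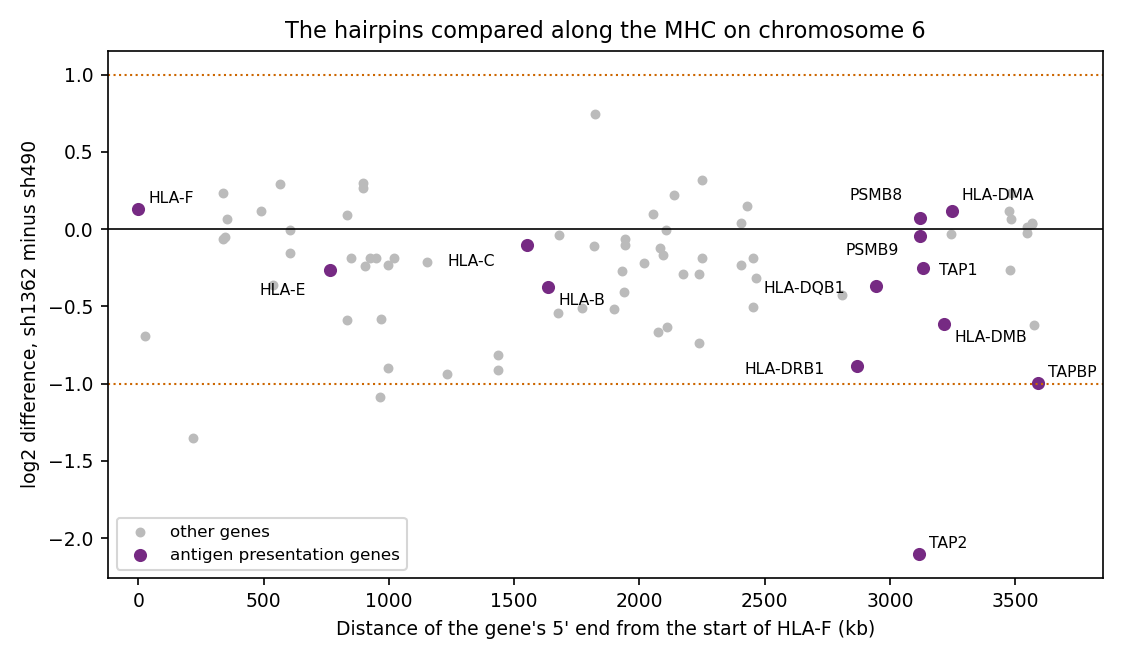
Difference between the hairpins (log2 of sh1362 minus sh490) for genes of at least 5 CPM along the MHC, by distance in kb of the gene's 5′ end from the start of HLA-F; members are large labelled points, other genes grey points, and dotted lines mark 2-fold. TAP2 lies at -2.10 and TAPBP at the lower dotted line, and most of the other genes also lie below 0.

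Other genes of the pathway were read from 7 lists with 72 genes. Of these 68 were tested and 0 passed in either direction in edgeR, with 2 at an unadjusted p under 0.05, where 4.35% of all genes were. These were PSMA7, a proteasome core subunit with 1207, 1307 and 497 counts (edgeR log2 fold 0.68, SE 0.28, p 0.0423, adjusted p 0.986), and MICB. PSMA7 was named after its values were seen. By size, the shares over all genes were 33.8% above with both hairpins and 34.4% below with both, and no test of the lists was made. Of the 16 constitutive proteasome genes 15 had at least 5 CPM, with 7 above shGFP with both hairpins, 2 below and 6 opposite. Of 10 genes of interferon gamma signalling 8 had at least 5 CPM, with 5 above with both, 2 below and 1 opposite, and medians of 0.10 and 0.03. IRF1, a transcription factor that binds interferon response elements and was also named outside the rule, had 143, 120 and 72 counts. These equal 18, 16.2 and 14.9 normalised CPM, at 121% (90.7 to 163) and 109% (80.8 to 148) of shGFP. Of 11 promoter partners and silencers, among them the NFY subunits that bind CCAAT and the Polycomb enzyme EZH2, 3 lay above with both hairpins, 0 below and 8 opposite.

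Single-hairpin differences of 2-fold were found in 3 of the 65 listed genes with at least 5 CPM, each with sh1362, where 9.29% of all genes were. MICB, a stress ligand of the NK receptor NKG2D, had 383, 250 and 352 counts and log2 folds of -0.59 (sh490) and -1.10 (sh1362) (edgeR log2 fold -0.82, SE 0.32, p 0.0328, adjusted p 0.986). HFE, a class I like regulator of iron uptake, had 231, 93 and 124 counts and log2 folds of 0.18 and -1.01. CTSZ, a lysosomal cathepsin, had 639, 210 and 295 counts and log2 folds of 0.40 and -1.09. Of 9 genes of translocation and folding in the endoplasmic reticulum 3 were lower and 6 higher with sh1362 than with sh490, with a median log2 difference of 0.48. Over all genes 51.7% were lower, with a median of -0.02. PDIA4, another disulfide isomerase, had 2653, 5079 and 1990 counts and was 2-fold apart between the hairpins. The rule for naming genes counts only differences from shGFP, so PDIA4 was picked once its values were known. It showed the same order of libraries as PDIA3 and CANX.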

How the data were processed

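The 3 RNA-seq libraries were prepared with a SMARTER kit, per the labels. The submitters' processing notes name STAR 2.6.1c, FastQC 0.11.8 and GRCh38. The authors deposited raw read counts per gene from featureCounts 1.6.0 on GENCODE version 32 exons, per the file headers, with no strand or multi-mapping option set. Of 60609 gene IDs 60295 matched a symbol.

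Both YES1 hairpins were compared with shGFP in edgeR 4.0.16 (R 4.3.3): TMM, filterByExpr defaults, robust quasi-likelihood test, two-sided, Benjamini-Hochberg adjustment over 15708 genes. The script was tested on simulated data. The single control library was taken to vary as the hairpin libraries do. The only spread within a group is that between sh490 and sh1362, moderated across genes. The p-values therefore reflect differences between the hairpins together with any technical spread. The labels name no separate cultures. Log2 folds of single hairpins used TMM-scaled CPM with a prior count of 2. Ratio intervals are exact conditional binomial intervals, level intervals exact Poisson. DESeq2 1.42.0, limma 3.58.1, other scalings and filters were alternatives. The named genes were all members, YES1, and listed pathway genes past the test or at least 2-fold from shGFP with 1 or both hairpins, and others are marked where named. Promoter words with other spacing were also tried. Members, lists, words and printed promoters were chosen with earlier results of these data known.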

Additional observations from a re-analysis of the deposited data

How the results depend on the processing

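No member passed the test under any of 7 alternatives (3 other scalings, 2 other filters, DESeq2 and limma-voom), and 0 of 219 refitted member folds changed sign. The lowest adjusted p among them was 0.916. All of these refits used the same libraries. With 1 hairpin left out, the folds of HLA-B, TAP2, TAPBP, PSME1, PSME2, NLRC5, CANX, PDIA3, HLA-DQA1 and CTSS did change sign. Over all genes, calls higher and lower with the hairpins were 0 and 4 in edgeR, 22 and 36 without a filter on low counts (where the median log2 fold of all genes was 0.13), 1 higher in DESeq2, and 2 lower in limma-voom. YES1 had an adjusted p of 0.0513 among genes with a mean of at least 5 CPM. With a minimum of 1 CPM in place of 5, 1 member was 2-fold apart with both hairpins, 1 with sh490, 3 with sh1362 and 2 between the hairpins, since HLA-G and HLA-DQA1 then entered. With library totals alone 2 members, TAP2 and TAPBP, were 2-fold apart between the hairpins. The class I median ranged from -0.11 without sh490 to 0.01 without sh1362, and the class II median from -0.54 to 0.00, so the class II value rests on sh1362. These fits without a hairpin have no residual degrees of freedom and no test. No paired analysis was possible because the control has 1 library. Depth limits the 9 members under 5 CPM, whose intervals span several-fold ranges.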

Other observations

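Close relatives of the class II beta chains were also read. HLA-DRB5, a second functional DR beta gene, had 154 (sh490), 106 (sh1362) and 130 (shGFP) counts, or 19.4, 14.4 and 26.9 normalised CPM. Per exon length HLA-DRB1 was at 74.6% of HLA-DRB5 in sh490 (58.0 to 95.8), 53.7% in sh1362 (38.2 to 75.0) and 54.0% in shGFP (39.7 to 72.8). HLA-DRB6, a pseudogene, had 15, 26 and 19 counts, and HLA-DQB2 had 0, 0 and 2. The antisense gene HLA-DQB1-AS1, which shares 241 exonic bases with HLA-DQB1, had 0, 3 and 4 counts, and reads over the shared bases were counted for neither gene. In the reads counted, HLA-DRB5 was thus above HLA-DRB1 per exon length in each library, beyond counting error. Those intervals do not cover reads that aligned to several places, which were not counted. How many such reads each of these close copies lost was not tested, so the order of HLA-DRB5 and HLA-DRB1 is uncertain.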
